A study of Mus musculus with 8 samples.

Results

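The control immunoprecipitation (IP) of a chromatoid body purification was compared with the pellet fraction of the same preparation scheme, to see which small RNAs of the pellet carried over into an IP with an antibody to acrosin (ACR). Features were matched by name and locus between the ACR IP table and the pellet table, and 1651 of the 1760 features listed in both had at least 5 FPKM in the lysate column of the pellet table. FPKM is a fragment count scaled to the length of the feature and to the size of the library. There were 2543 features in the ACR IP table and 3005 in that of the pellet. Of the 2342 pellet features that reached 5 FPKM in the lysate, 691 had no row in the ACR IP table and are not described. The features nearest the threshold were Cd84 (5.01 FPKM) and Hist2h4 (5.04 FPKM) just inside, and Gsg1l (4.97 FPKM) and Mrfap1 (4.99 FPKM) just outside.

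The series holds 8 small RNA libraries from adult testis of C57BL/6 mice aged at least 6 weeks. The labels' protocols describe seminiferous tubule cells that were fixed with formaldehyde, broken by sonication in a RIPA lysis buffer and centrifuged, which left a supernatant and pellet1. Pellet1 was sonicated and filtered to give pellet2, and antibody-coated beads were added to pellet2. All RNA was gel-selected at 19 to 33 nt. The groups used here were the ACR IP (1 library, labelled as a control), the lysate (1 library) and the authors' pellet value. The labels tie that value to both pellet1 and pellet2 without saying which it holds, so it has no n. They also call the ACR sample an IP from lysate, whereas the protocol names pellet2 as the material bound to beads. All 3 come from unmodified C57BL/6 testis, and no pooling of animals or number of animals is given in the labels. With 1 value per group there was no test, no error between replicates and no p-value. Every difference below compares single columns of values, not conditions.

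The chromatoid body is a perinuclear granule of RNA and protein in round spermatids, rich in the helicase MVH (DDX4) and in PIWI proteins with their piRNAs. Pachytene piRNAs are made from long precursor transcripts of discrete genomic clusters, whereas microRNAs are cut from short hairpins and are loaded on Argonaute proteins. Acrosin is a serine protease stored in the acrosome, the secretory vesicle over the sperm nucleus, and is not known as a chromatoid body component. An IP against it serves as a measure of the RNA that comes down with beads and antibody without the granule protein.

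The microRNAs on which the comparison turned are shown first, with the mature sequence from RefSeq (GRCm38.p6) and the seed, bases 2 to 8, in capitals. The deposited tables count the hairpin gene and not an arm, so the sequence names the main product and not the molecule that was counted. Of the 291 microRNA genes among the features, 254 had a mature entry by symbol. The first group holds members of the miR-34/miR-449 family, which share 1 seed, are abundant in meiotic and post-meiotic germ cells and as a family summed to a lower share of their pellet level than the second group:

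Mir34a: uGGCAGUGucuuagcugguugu
Mir34b: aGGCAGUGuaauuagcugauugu
Mir449a: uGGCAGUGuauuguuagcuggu

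The second group holds let-7 and the miR-10, miR-99 and miR-125 family, broadly expressed microRNAs, although single members of both groups overlapped (Mir34a at 67.0% and Mirlet7b at 67.6% of the pellet level). The let-7 members share 1 seed, as do Mir99a and Mir100, and Mir10a and Mir125a have seeds of their own:

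Mirlet7b: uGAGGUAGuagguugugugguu
Mirlet7d: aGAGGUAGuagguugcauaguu
Mirlet7g: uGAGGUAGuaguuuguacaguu
Mir10a: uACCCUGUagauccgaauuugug
Mir99a: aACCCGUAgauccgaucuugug
Mir100: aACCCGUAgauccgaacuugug
Mir125a: uCCCUGAGacccuuuaaccuguga

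The third group sets side by side members of the miR-17-92 group with an identical seed but unequal IP values, and the neighbouring hairpins Mir191 and Mir425, both high in the pellet and nearly absent from the IP:

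Mir17: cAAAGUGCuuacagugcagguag
Mir20a: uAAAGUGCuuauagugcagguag
Mir93: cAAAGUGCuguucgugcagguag
Mir191: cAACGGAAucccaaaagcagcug
Mir425: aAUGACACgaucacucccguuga

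The ACR IP library was shallow, and its depth set what could be seen. FPKM values of short features fell on whole multiples of a step, which was taken as the worth of 1 read in each column. In the ACR IP, 125 of 130 low microRNA and cluster values (96.2%) were within 0.03 of a whole number of reads, and 0 of 134 were when the step was moved by 7%. In the pellet column 30 of 43 low values (69.8%) were whole, so its reads are less certain. Low values such as those of Mir127, Mir132 and Mir193 stood at 3 pellet steps, and that of Mir106a at 2. A pellet step may therefore be less than 1 read. Taken as 1 read each, the steps implied totals of 402000 reads for the ACR IP and 34180000 for the pellet. For the lysate they implied 3506000 in the pellet table and 4025000 in the ACR IP table. The pellet total is too high if its step is less than 1 read. On the FPKM scale 1 ACR IP read was thus worth 84.9 pellet steps and 8.71 steps of the lysate in the pellet table. Percentages of the pellet level use the ACR IP step and the pellet FPKM, not the pellet step. A level is stated below both as FPKM and as derived ACR IP reads, next to the number of reads that the pellet's FPKM would have given in the ACR IP library. Intervals are exact 95% Poisson intervals of the ACR IP reads. They cover counting error only, since reads without molecular identifiers are not independent molecules. FPKM was not compared between classes: a single ACR IP read gave 2468 FPKM on a 71 bp feature such as the hairpin of Mir125b-2, and 2.11 FPKM on the 1378 bp piRNA_cluster_177.

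The lysate appears in both tables and served as a check of each feature. Its value in the ACR IP table was 0.867 times that in the pellet table at the median (log2 -0.21), and 1320 of the 1651 features lay within 0.1 log2 units of that shift. In the other 331 the lysate columns disagreed, in 107 of all features by more than 2-fold downward in the ACR IP table, and 5 were at 0 there. Mir16-1 (92041 against 1547160 FPKM) and Mir29b-1 (987 against 552349 FPKM) were among them, both hairpins whose mature sequence also comes from another locus. A value of 0 in the ACR IP is therefore not read as absence for such features. Some genes of testis cells had reads in the pellet table's lysate column. Prm1, a protamine of condensing spermatids, had 398 FPKM, and Tnp1, a transition protein, had 224 FPKM. Insl3, of Leydig cells, had 32.5 FPKM, and none of the Sertoli, blood or peritubular marker genes looked for was among the features compared. Small RNA reads inside these genes do not measure the message, so the cell makeup of the lysate was not tested.

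Fewer features were found in the ACR IP than in the pellet. Above 0 in the ACR IP were 606 of 1651 features (36.7%), where 40.6% of all 1760 features listed in both tables were above 0. Listed at 0 in the ACR IP were 1045 features, of which 90 were at 0 in both columns and 955 had a pellet value. Among the 596 features above 0 in both, the median log2 ratio of ACR IP to pellet was -0.74 (quartiles -4.01 and 1.17). By a 2-fold bound 155 were higher in the ACR IP, 283 were lower and 158 lay within it. Over all 702 features above 0 in both columns, with no lysate minimum, 35.2% were higher and 40.9% lower by that bound. The overall direction depended on scale: with each column divided by its own sum, to which microRNA genes contributed most, 332 were higher and 176 lower and the median was 1.54. Differences between classes do not depend on such a shift.

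The classes separated along the ratio. Counts here are of features above 0 in both columns, and since 1 ACR IP read is the lowest value that can appear, low features enter only where the ratio is high. Among piRNA clusters all 138 such members passed the 2-fold bound downward. Their median log2 ratio was -5.15, against -0.74 over all features. Among microRNA genes 10 were higher and 30 lower of 70, with a median of -0.60. Among named genes of other kinds 138 were higher and 105 lower of 367, with a median of 0.26. Assembled transcripts without annotation had 7 higher and 8 lower of 19, with a median of -0.63. Small structured RNA genes had only 2 members above 0 in both, each lower.

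**Figure D1:**
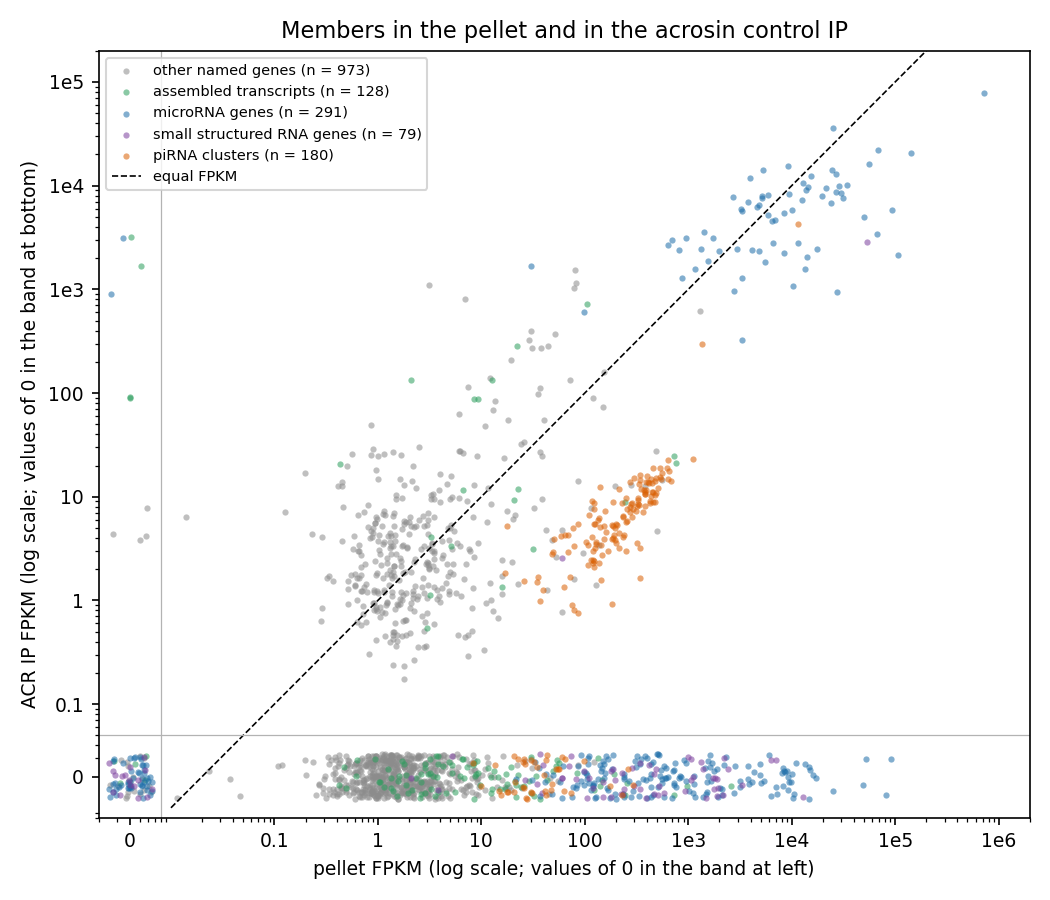
Each point is 1 of the 1651 features, with the authors' pellet FPKM on the x axis and ACR IP FPKM on the y axis, both on log scales, values of 0 drawn in bands (jittered) and the dashed line marking equal FPKM. The piRNA clusters form a band below the line, most microRNA genes lie nearer to it, named genes scatter on both sides, and 1045 features sit in the bottom band.

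The piRNA cluster loci give rise to the piRNAs that MIWI and MILI bind in meiotic and post-meiotic germ cells. All 180 clusters had a pellet value and 138 (76.7%) were above 0 in the ACR IP. Cluster reads were derived with the whole locus as length, which may be longer than the part that gives reads. By that length 115 of the 138 values (83.3%) were within 0.03 of a whole read. The percentage of a single cluster does not depend on the length, but its reads, its interval and the sums do. Summed over clusters, the ACR IP held 9204 reads where the pellet's level would have given 253439, which is 3.63% (95% interval 3.56 to 3.71%). That sum leaned on piRNA_cluster_177, and it was 2.90% without it. Among the 179 clusters with at least 3 reads expected at the pellet level, the median was 2.50% (quartiles 0.999 and 3.46%), 41 were at 0 and 4 were above 10%. For 178 of the 179 the counting interval lay wholly below the pellet level. Most clusters thus stood at a few percent of their pellet level.

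Among clusters with many reads, loci of different length could have similar shares. By expected reads, the summed ratio of clusters with agreeing lysate columns was 0.0290 at 3 to 10, 0.0116 at 10 to 30 and 0.0359 at 30 or more. The first 2 of these rest on 3 and 4 ACR IP reads. The cluster with the longest locus, piRNA_cluster_128 (mm9 chr11:107794700-108205202), had 10.6 FPKM in the ACR IP and 383 FPKM in the pellet, or 1748 reads of 63303, 2.76%. piRNA_cluster_68 (mm9 chr7:80929416-80970875) had 19.1 and 617 FPKM, 3.09% on 317 reads. piRNA_cluster_187 (mm9 chr17:27443053-27458448) had 17.7 and 645 FPKM, 2.74% on 108 reads. All 3 lay within the quartiles of the class. Within the quartiles too, piRNA_cluster_79 had 23.1 and 1114 FPKM, 2.08% on 39 reads, and piRNA_cluster_107 had 14.2 and 677 FPKM, 2.09% on 40 reads. The lowest ratio above 0 was that of piRNA_cluster_143, with 1.64 FPKM, a single read, against 338 FPKM (log2 -7.69). Its lysate columns disagreed, 840 FPKM in the ACR IP table against 1642 FPKM. piRNA_cluster_197, whose lysate columns agreed, was nearly as low at 0.926 against 184 FPKM (log2 -7.64).

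A pair of clusters with many reads stood above the share of most clusters. piRNA_cluster_177 (mm9 chr17:39983504-39984882) had 4257 FPKM in the ACR IP, 11581 FPKM in the pellet and 9316 FPKM in the lysate of its own table. Its 2017 ACR IP reads were 36.8% of its pellet level (35.2 to 38.4%), the highest among clusters, and its lysate columns agreed. In the pellet it stood at the level of the lysate, where the clusters together stood at 18.1% of it. Its locus lies close to that of Mir715 (mm9 chr17:39981080-39981190), which is in a list of tRNA-like or ribosomal microRNA entries. Whether the reads of piRNA_cluster_177 are piRNAs or fragments of ribosomal RNA was not tested. piRNA_cluster_39 (mm9 chr5:115300314-115302629) had 300 FPKM against 1354 FPKM, 255 reads and 22.1% (19.5 to 25.03%), with disagreeing lysate columns (3727 against 5082 FPKM). The microRNA gene Mir469 is listed at the same locus, at 0 in the ACR IP against 48997 FPKM in the pellet. Its lysate had 433 FPKM in the ACR IP table and 410051 FPKM in the pellet table. How reads were divided between these overlapping entries was not tested, and it bears on the 22.1%. The other 178 clusters together were at 2.81%. piRNA_cluster_163 and piRNA_cluster_154 were also above 10%, at 29.9% and 10.9%, but on 2 reads and 1 read, and the interval of piRNA_cluster_163 reached from 3.62 to 108%.

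Zeros among clusters were most frequent under 30 expected reads, with exceptions, and 41 of the 42 zeros stood where at least 3 reads were expected. Of clusters whose lysate columns agreed, 3 of 19 with 10 to 30 reads expected at the pellet level were above 0, and 110 of 120 with 30 or more. The most marked zeros were piRNA_cluster_49 (mm9 chr6:85060730-85076088), at 0 where the pellet's 263 FPKM would have given 1604 reads, and piRNA_cluster_16 (mm9 chr3:124103058-124128946), at 0 of 617 reads. In each case a named gene occupies the same locus and was above 0: Gm5878 at piRNA_cluster_49 had 12.9 FPKM in the ACR IP against 279 in the pellet, and 1700006A11Rik at piRNA_cluster_16 had 12.5 against 380 FPKM. These 2 clusters are therefore listed at 0 beside an overlapping gene that is not. Whether reads were assigned to only 1 of the overlapping entries was not tested.

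Named genes whose locus overlaps a cluster were about as low as the clusters where a ratio could be taken. The overlap is one of loci, and a gene may extend beyond the cluster. Of these 11 genes, 6 were above 0 in both columns, and all 6 passed the 2-fold bound downward. The log2 ratio of the 6 was -5.09 at the median. Eif2c2, Kcnk10, Mif and Stox1 were at 0 in the ACR IP, and Gm10069 was at 0 in the pellet. D130017N08Rik, at piRNA_cluster_33, had 4.69 against 501 FPKM, and 1700020N18Rik, at piRNA_cluster_6, had 14.4 against 554 FPKM. Of the 962 named genes outside clusters, 598 were at 0 in the ACR IP, and the 361 above 0 in both columns had a median of 0.32.

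Of 291 microRNA genes, 72 (24.7%) were above 0 in the ACR IP and 49 were at 0 in both columns. All 70 that had a length for the calculation came out as whole reads, 22 of them at 1 read and 42 at 3 reads or fewer. Over the 281 genes with a length the ACR IP held 292 reads where the pellet's level would have given 1513, which is 19.3% (17.1 to 21.6%). Among genes whose lysate columns agreed, the sum was 289 of 1169 reads, 24.7% (22.0 to 27.7%), and among those whose lysate columns disagreed it was 3 of 344 reads, 0.871%. The microRNA sum, over all genes or those with agreeing columns, was thus several times that of the piRNA clusters, with intervals that did not overlap. Among features with disagreeing lysate columns the order was the other way, with 4.74% for clusters. The values for microRNA lists that follow use the genes with agreeing lysate columns. Among these genes the ratio of summed ACR IP reads to reads expected at the pellet level varied with that expectation. It was 0.884 at 1 to 3 expected reads, 0.464 at 3 to 10, 0.248 at 10 to 30 and 0.114 at 30 or more. Under 0.3 reads it was 0.785, and at 0.3 to 1 it was 0.476. The families differ in their expected reads, so family and level cannot be told apart. The classes differ in level too: 120 of the 152 clusters with agreeing columns had 30 or more expected reads. There the clusters were at 0.0359 and 6 microRNA genes at 0.114, a smaller gap than between the sums. At 10 to 30 expected reads the clusters were at 0.0116, against the 0.248 of microRNA genes.

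**Figure D2:**
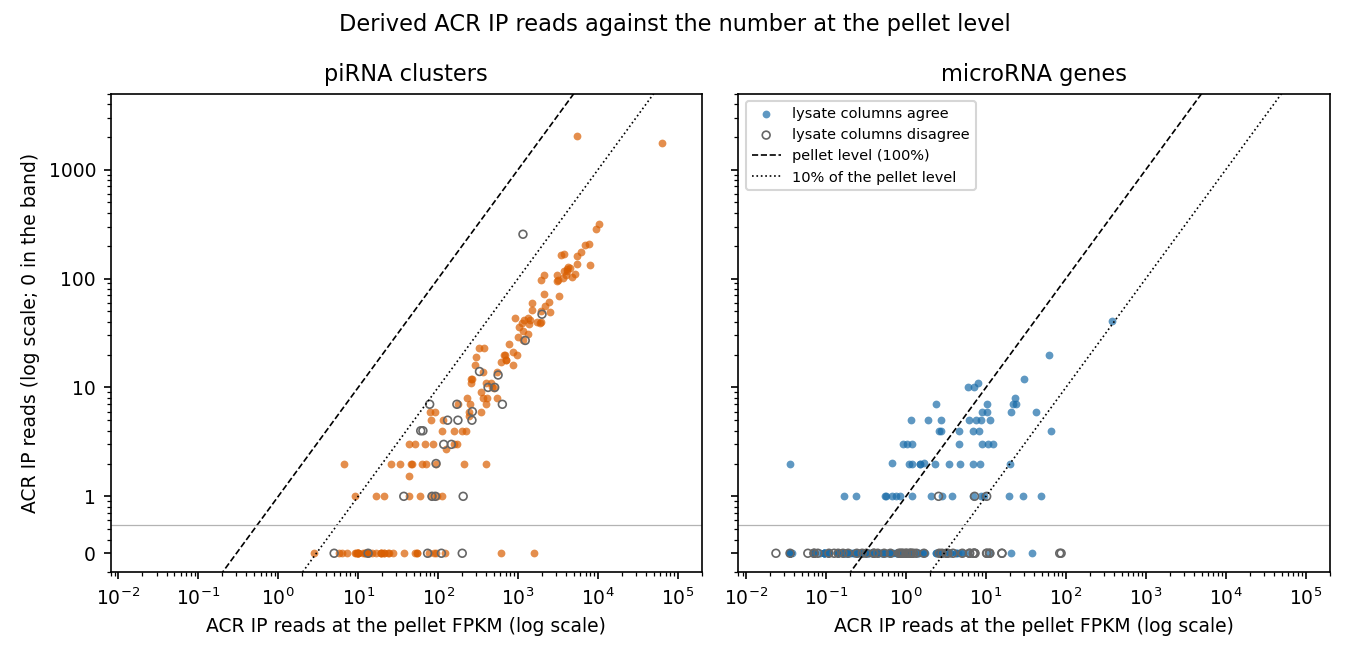
Derived ACR IP reads (y axis) against the number the pellet FPKM would have given in the ACR IP library (x axis), both log scales, for piRNA clusters (left) and microRNA genes (right), with filled points where the lysate columns agree, a band for 0 reads, a dashed line at the pellet level and a dotted line at 10% of it. Clusters run along a line below 10% from 1 read to 1748 reads, with piRNA_cluster_177 and piRNA_cluster_39 above it, while microRNA genes spread from below the 10% line to above the pellet level and reach 41 reads.

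The miR-34/miR-449 family, whose members are needed together for normal spermatogenesis, accounted for 513 of the 1513 reads at the pellet level. Mir34c (mm9 chr9:50911138-50911215) had 78133 FPKM in the ACR IP, 719747 in the pellet, and 8198840 and 9444380 FPKM in the lysate of the ACR IP and pellet tables. That is 41 reads of 378, or 10.9% of the pellet level (7.79 to 14.7%). Mir34b, its neighbour on the same transcript, had 5770 against 93006 FPKM, 4 reads of 64.5 (6.20%). Mir449a had 22292 against 67816 FPKM, 20 reads of 60.8 (32.9%, 20.1 to 50.8%), and its interval did not overlap that of Mir34c. Mir34a had 4614 against 6889 FPKM, 6 reads of 8.96 (67.0%), with an interval from 24.6 to 146%. Mir449b and Mir449c were at 0, where 0.0706 and 0.743 reads would have stood for the pellet level. The family summed to 13.8% (10.8 to 17.5%).

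Other microRNAs that lead the pellet were low too. Mir191, a hairpin in an intron of Dalrd3, had 2163 against 106654 FPKM, which was 1 read of 49.3, and Mir425, its neighbour, was at 0 where 37.5 reads would have stood for the pellet level. At 3 reads, the number that a count of 0 was taken to allow, Mir425 would stand at 8.004% of the pellet. Mir15b had 6 reads of 41.8 (14.4%), Mir184 6 of 20.8 (28.8%) and Mir205 3 of 10.7 (28.2%). The list of 8 microRNAs named as leading in earlier results on these chromatoid body samples, which includes Mir34c, summed to 12.7% (10.1 to 15.8%). Mir34c held 41 of its 82 reads.

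The let-7 family, a broadly expressed set linked to differentiation, lay nearer to the pellet. Mirlet7d had 8193 FPKM in the ACR IP against 5867 in the pellet, 11 reads of 7.88. Mirlet7b had 9721 against 14378 FPKM, 7 reads of 10.4 (67.6%). Mirlet7g had 8694 against 26969 FPKM, 7 of 21.7 (32.2%), and Mirlet7e and Mirlet7i had 3 and 2 reads. These 5 genes summed to 65.8% (44.4 to 94.0%), with an interval above that of the miR-34/miR-449 family. The other 7 let-7 genes were at 0 with disagreeing lysate columns, and all 12 together were at 28.8%.

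The miR-10, miR-99 and miR-125 family was mixed, with Mir100, Mir10a and Mir125a above the pellet level and the other 5 of 8 genes below it. Mir100 had 11806 against 3988 FPKM, 7 reads of 2.36, with an interval of 119 to 610% of the pellet. Mir10a had 3000 against 700 FPKM, 5 reads of 1.17, with an interval of 139 to 1000%. Mir125a had 14154 against 5273 FPKM, 5 reads of 1.86, with an interval of 87.2 to 626%, and Mir99a had 4 reads of 8.19. Mir99b and Mir10b were at 0 of 1.06 and 3.58 reads. Both Mir125b genes had disagreeing lysate columns, with 1 read of 7.19 for Mir125b-2 and 0 of 7.11 for Mir125b-1. The 6 genes with agreeing lysate columns summed to 115% (71.3 to 176%), and all 8 to 67.6%.

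A list of somatic microRNAs, which mark cells other than germ cells, was also near the pellet level, at 93.0% (57.6 to 142%) over 8 genes with a length. Mir143, of smooth muscle and peritubular cells, had 36087 against 25211 FPKM, 10 reads of 6.99. Mir145, from the same transcript, had 3 reads of 1.04. Mir451, of red blood cells, had 14162 against 24386 FPKM, 6 reads of 10.3 (58.1%). Mir142, of white blood cells, was at 0 of 1.45 reads, and Mir126, of endothelium, had 4518 against 6423 FPKM. The part of these cell types in the result was not tested. In bulk fractions fewer cells of a type and less RNA per cell cannot be told apart.

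Among genes with agreeing lysate columns, the remaining families in the plot of carry-over by list lay between. The X-linked testis cluster, hairpins expressed in germ cells, summed to 36.4% (24.2 to 52.6%), with Mir880 at 5 reads of 7.54, Mir871 at 5 of 11.3 and Mir881 at 0 of 5.20. The miR-30 family was at 27.3% (13.1 to 50.3%) and the miR-15/miR-16 family at 21.6% (13.0 to 33.7%). With Mir16-1 and Mir16-2, at 0 of 87.1 and 83.7 reads and with disagreeing lysate columns, the miR-15/miR-16 family was at 7.34% (4.42 to 11.5%), below the miR-34/miR-449 family. The miR-17-92 group was at 19.3% (11.4 to 30.4%), and its members differed among themselves: Mir20a had 12 reads of 29.7, Mir17 had 4 of 6.92, Mir18 had 1 of 29.4 and Mir93 had 0 of 20.3. Mir17, Mir20a and Mir93 carry the same seed, so the shared seed did not go with a shared level. Mir320 had 10 reads of 5.87 (81.6 to 313%). In all, of the 50 microRNA genes with agreeing lysate columns and at least 3 reads expected, 13 were above 50% of the pellet level, 3 above 100% and 12 at 0, with a median of 27.5%. The counting interval lay wholly below the pellet level for 29 of them and wholly above it for 0. Over all 70 microRNA genes with at least 3 reads expected, whatever their lysate columns, the median was 9.87%, 30 were at 0 and the interval lay wholly below the pellet level for 47.

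**Figure D3:**
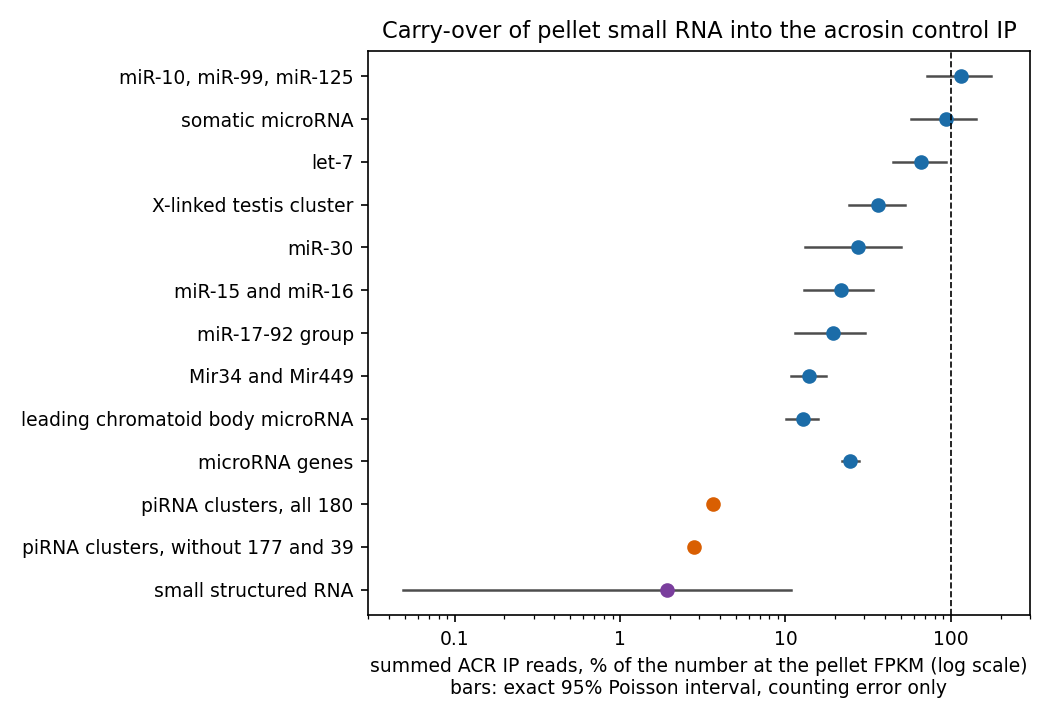
Summed ACR IP reads as a percentage of the number at the pellet FPKM (x axis, log scale) for small structured RNA, piRNA clusters and microRNA lists (microRNA genes with agreeing lysate columns), with bars for the exact 95% Poisson interval and a dashed line at the pellet level. Small structured RNA and clusters lie under 4%, the miR-34/miR-449 family at 13.8%, and let-7, the somatic list and the miR-10, miR-99 and miR-125 family between 65.8% and 115%.

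The lysate gave a second reference for the same reads, within the ACR IP table. Against it the microRNA lists were closer together. The ACR IP held 1.14% (0.893 to 1.44%) of the lysate level for the miR-34/miR-449 family, 2.50% (1.69 to 3.57%) for let-7, 2.78% (1.72 to 4.25%) for the somatic list and 3.73% (2.31 to 5.70%) for the miR-10, miR-99 and miR-125 family. In the pellet these lists stood at 7.16%, 3.25%, 2.59% and 2.82% of the pellet table's lysate, so of these 4 lists the one highest in the pellet for its lysate level was the lowest in the ACR IP for its pellet level. The 2 ratios share the pellet value. Clusters were at 0.762% (0.746 to 0.777%) of the lysate in the ACR IP and at 18.1% in the pellet, and microRNA genes with agreeing columns at 1.63% (1.44 to 1.83%) and 5.71%. For all clusters and these microRNA genes both references therefore put the clusters below the microRNAs in the ACR IP, by about 2-fold against the lysate and more against the pellet. With the whole locus as cluster length, clusters took 63.0% of pellet reads and 2.29% of ACR IP reads as shares of the implied totals. MicroRNA genes took 0.376% and 0.0726%.

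Detection rose with the number of reads expected at the pellet level, and at equal expectation the classes differed. Of microRNA genes with agreeing lysate columns, 5 of 109 were above 0 where fewer than 0.3 reads were expected, 17 of 31 at 1 to 3 reads and 20 of 29 at 3 to 10 reads. Of clusters at 3 to 10 expected reads, 2 of 12 were above 0. Most microRNA zeros, such as that of Mir155 at 0.177 reads expected, could not be told from the pellet level at this depth.

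**Figure D4:**
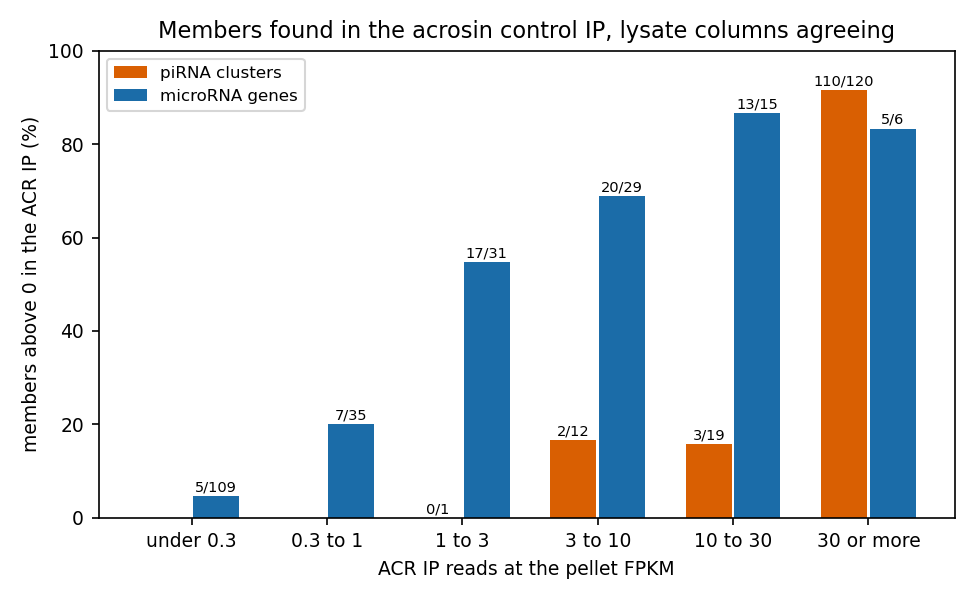
Bars give the percentage of piRNA clusters and microRNA genes above 0 in the ACR IP (y axis, from 0) by the number of ACR IP reads that the pellet FPKM would have given (x axis, bins), for features whose lysate columns agree, with the counts above each bar. At 10 to 30 expected reads 13 of 15 microRNA genes and 3 of 19 clusters were above 0.

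The small structured RNA genes encode small nucleolar, small nuclear and related RNAs that guide RNA modification or splicing and work in the nucleus. Of 79, 62 had a pellet value and 2 were above 0 in the ACR IP. Snord2, a C/D box guide, had 2831 against 53600 FPKM, which was 1 read of 18.9 (5.28%, 0.134 to 29.4%). Rnu1b2, a U1 small nuclear RNA gene, had 2.56 against 60.0 FPKM. Snord37, with 12835 FPKM in the pellet, Snord69 with 6985 and Snord95 with 6279 were at 0, where only 2.05, 1.57 and 2.22 reads would have stood for the pellet level, so these zeros could not be told from it. Rnu12, of the minor spliceosome, was at 0 where 9.07 reads would have stood for the pellet level, or 33.1% if 3 reads are allowed. Over the 76 with a length the ACR IP held 1 read of 51.7 at the pellet level, 1.93%, with an interval of 0.0490 to 10.8%. The class was below the microRNAs, and at this depth not separable from the clusters.

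The named genes of other kinds are mostly messenger RNA genes, whose reads of 19 to 33 nt are fragments or unannotated small RNAs inside the gene, so their values do not measure the message. Of 973 genes, 371 (38.1%) were above 0 in the ACR IP. A few held most of the class: 5 genes accounted for 49.4% of its summed ACR IP FPKM and 10 for 66.8%. The ratio of summed FPKM, ACR IP to pellet, was 1.30, and it was 0.532 without those 10, which were chosen by their ACR IP value.

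Plekhg4, a guanine nucleotide exchange factor gene, had 1551 FPKM in the ACR IP, 80.4 in the pellet and 34.8 and 41.4 in the lysate columns. Smc6, of the SMC5/6 DNA repair complex, had 1154 against 82.1 FPKM. 2410003K15Rik had 1029 against 78.4 FPKM. These 3 were 13.1- to 19.3-fold higher in the IP than in the pellet, and each had more in the pellet than in either lysate column. Npm1, the nucleolar chaperone nucleophosmin, had 1097 against 3.12 FPKM, and Apoe, a lipid carrier, had 804 against 7.01 FPKM. Npm1 and Apoe were at or below their lysate level in the pellet. The lysate columns disagreed for Smc6, Npm1, 2410003K15Rik and Apoe and agreed for Plekhg4. By the shortest protein-coding transcript in GENCODE M21, Apoe stood on 82.6 ACR IP reads, Plekhg4 on 89.3, Smc6 on 122 and Npm1 on 338. By the longest, Apoe stood on 391, Plekhg4 on 2475, Smc6 on 2509 and Npm1 on 632, so neither number nor order is fixed. No read number was derived for 2410003K15Rik.

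Further genes with high ACR IP values were likewise above the pellet. Snrnp48, of the minor spliceosome, had 372 against 52.1 FPKM, Cacna1d 322 against 29.1 and Prodh2 274 against 30.8 FPKM. Lars2, a mitochondrial leucyl-tRNA synthetase gene, was an exception, at 623 FPKM in the ACR IP and 1287 in the pellet (log2 -1.05). It had 604 FPKM in the pellet table's lysate. Whether fragments of ribosomal RNA contribute to the Lars2 value was not tested. Msto1 had 73.4 against 151 FPKM with only 7.66 in the lysate. Kit, the stem cell factor receptor, had 54.6 against 18.2 FPKM with disagreeing lysate columns. Smc6, Msto1, Lars2 and Kit had been listed as high in the pellet in earlier results on these data, so their pellet values are no new observation.

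**Figure D5:**
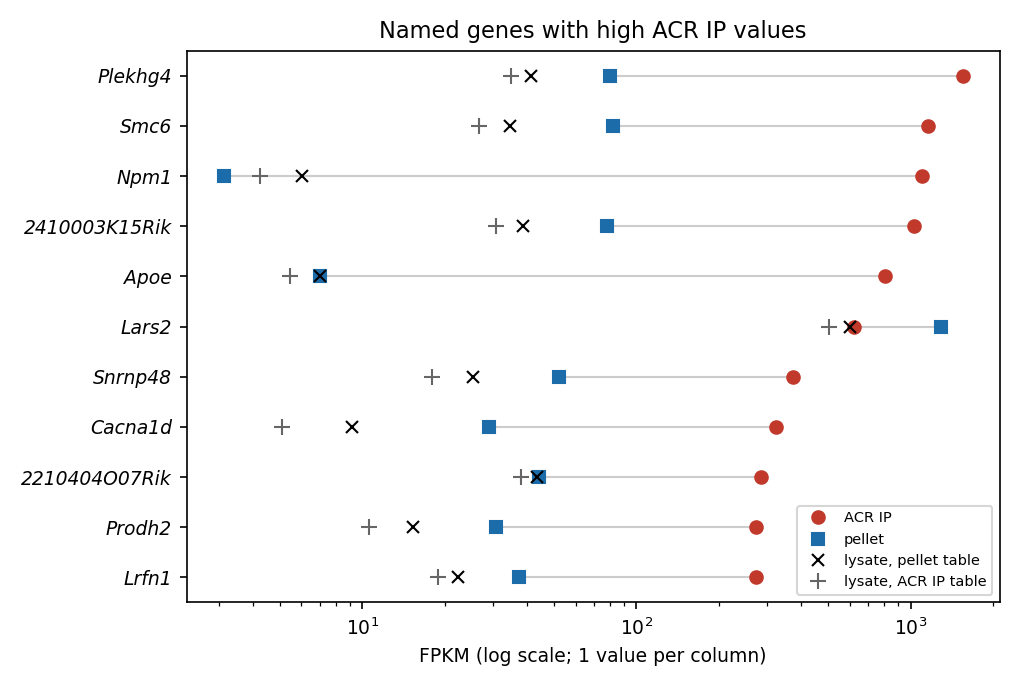
FPKM (x axis, log scale, 1 value per column) in the ACR IP, the pellet and both lysate columns for 11 of the named genes with the highest ACR IP values, ordered by that value. In 10 of the 11 the ACR IP value is the highest of the 4, and Lars2 is higher in the pellet.

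The highest ratio above 0 in both columns was that of BC048599, which had 6.32 FPKM in the ACR IP against 0.0140 in the pellet (log2 8.82). Ndufa5, Tmsb15a and Mir350 all had a ratio of 56.6, or 0.667 ACR IP reads per pellet step, and Mir350 stood on 2 ACR IP reads. Their pellet values were 0.126, 0.860 and 29.9 FPKM. A pellet step may be less than 1 read, so the number of pellet reads behind these ratios is not fixed. Npm1 and Apoe, described above, had the next highest ratios after BC048599 (log2 8.46 and 6.84).

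Lists of testis and pathway genes held few members, and their shares above 0 in the ACR IP are given beside 36.7% of all features. Of 18 genes of late spermatid chromatin and sperm tail, 3 were above 0: Prm2 had 6.04 against 20.2 FPKM, Gapdhs 2.23 against 7.07 and Oaz3 13.3 against 4.63. Prm1 (26.6 FPKM in the pellet), Tnp1 (30.8) and Tnp2 (19.2) were at 0. Of 6 acrosome genes 3 were above 0, with Acrbp, which binds the acrosin precursor, at 7.04 against 0.735 FPKM, Dkkl1 at 3.54 against 3.36 and Crisp2 at 2.06 against 3.09, while Adam2 and Adam3 were at 0. Of 7 genes for chromatoid body and piRNA pathway proteins 2 were above 0, among them Tdrd1, a Tudor scaffold, at 6.36 against 0.967 FPKM, and Piwil1, Piwil2, Ddx25 and Eif2c2 were at 0. The gene of acrosin itself was not among the features compared.

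Genes of the translation machinery and chromatin gave few values, to be set beside the same 36.7% above 0 and, over all features above 0 in both columns, 35.2% higher and 40.9% lower by the 2-fold bound. A member low in the pellet could appear only where its ratio was high, since 1 read is the lowest ACR IP value. Of 42 ribosomal protein genes 10 were above 0, of which 6 were higher and 2 lower by the 2-fold bound. Rps15, the highest in the pellet, had 7.74 against 116 FPKM, and Rpl38 had 27.7 against 6.09. Of 12 histone genes 3 were above 0, all at least 2-fold higher: H3f3b had 4.16 against 0.588 FPKM and Hist3h2a 4.17 against 1.24, and Hist2h4 had 16.8 against 0.198 with a lysate of 0 in the ACR IP table. Hist1h2ba, a testis histone with 44.6 FPKM in the pellet, was at 0. Malat1, a nuclear long non-coding RNA, had 0.366 against 1.49 FPKM and Neat1 was at 0. Of the spermatocyte genes Hspa2 had 10.7 against 3.38 FPKM and Pgk2 was at 0. Of housekeeping genes Eef2 had 4.29 against 1.47 FPKM and Eef1a1 was at 0. Insl3 was at 0.

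Features at 0 in the pellet were reported apart. There were 100, of which 10 were above 0 in the ACR IP, and for these no ratio is given. Mir154 and Mir337, hairpins of the imprinted Dlk1-Dio3 region, had 3113 and 906 FPKM in the ACR IP, which was 1 read each. The assembled transcript Cuff.1088 (mm9 chr12:59052258-59052510) had 3228 FPKM with 108 in its lysate, and Cuff.3316 (mm9 chr4:115325408-115326070) had 1687 FPKM with lysate columns at 0 and 387. Cuff.2735 and Cuff.908 had 92.3 and 89.8 FPKM. Of the named genes, Polr2f had 7.79 FPKM, Ly6k 4.34, Cdc26 4.19 and Gm10069, whose locus overlaps piRNA_cluster_47, 3.86.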

How the data were processed

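The authors' files hold FPKM per feature, in 1 table for the ACR IP with the lysate and 1 for the pellet with the lysate, normalized separately. The unit was taken from the columns and values of the deposited tables and from the tools that the submitters' processing notes name (TopHat, Cuffdiff, mm9 build, with no role or version). Annotation, treatment of reads with several matches and the aligner's settings are not given in the sources used here. Rows were joined by name and locus, and 4 per-sample columns were used: ACR IP, pellet and both lysate columns. The work was done in Python 3.11.15 (numpy 2.4.6, scipy 1.17.1, pandas 2.3.3, matplotlib 3.10.9).

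The log2 ratio of ACR IP to pellet FPKM was taken without a pseudocount for features above 0 in both, and zeros were counted apart. A 2-fold difference counted as higher or lower. Reads were derived as FPKM times effective length divided by the step of the column. The effective length assumed fragments of mean 200 and SD 80 nt, from 15 to 440 nt. Length was the locus for clusters and hairpins under 200 bp, and the RefSeq length otherwise. This length model was chosen after seeing the data. Recovery of the step was tested on data simulated with the same length model. That test bears on the search for the step, not on the choice of the model or the poorer fit of the pellet column. Where the authors' deposited value was above 0 but gave well under 1 read by that length (Rnu1b2), no read number is printed. Such values are also left out of the counts of whole reads by class. A count of 0 was taken to allow 3 reads.

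Members and the 26 lists were chosen with earlier results of these data known. Features were named by a rule: the 12 highest and 12 lowest ratios, the 12 highest ACR IP values, the 12 highest pellet values at 0 in the ACR IP, up to 12 at 0 in the pellet, the 4 highest of each class and 4 of each list. Others, such as members of microRNA families and overlapping genes, were chosen after their values were seen. Alternatives were other lysate minimums, pseudocounts, scaling by own lysate or column sum and, added after seeing the data, agreeing lysate columns, leaving out the leading member and scaling by the median lysate. The value of 1 further gene is not reported here.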

Additional observations from a re-analysis of the deposited data

How the results depend on the processing

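No paired analysis was possible because each group has 1 library or value, and for the same reason no replicate could be left out. The share of features above 0 in the ACR IP was 40.6% with no lysate minimum. The median log2 ratio of all features was -3.84 with a lysate minimum of 20 FPKM, -1.44 with a pseudocount of 1 FPKM and -3.89 with one of 0.1 FPKM (members at 0 included), and 1.54 with columns divided by their sums. Features at least 2-fold higher numbered 247 with no minimum, 30 at 20 FPKM and 332 with columns divided by their sums. Those at least 2-fold lower numbered 1020 and 1232 with the pseudocounts of 1 and 0.1, and 176 with column sums. Divided by sums, the microRNA median was 1.68. For other named genes the median turned to -1.58 at 20 FPKM, -0.98 with a pseudocount of 1 and -3.22 with one of 0.1. For assembled transcripts it turned to 2.61 with no minimum, 0.17 with each column divided by its own lysate and 1.65 by sums. The ratio of Mir125b-2, whose lysate columns disagree, turned to 2.50 when each column was divided by its own lysate. The carry-over of clusters was 2.90% without piRNA_cluster_177 and 4.19% with columns scaled by their median lysate. That of microRNAs was 24.7% with agreeing lysate columns, 22.1% without Mir34c and 22.2% with that scaling, and that of small structured RNA was 0% without Snord2. The cause of these shifts was not tested. In summed reads, clusters were below microRNA genes without the leading member of each, with the median lysate scaling and with agreeing lysate columns. Among features with disagreeing lysate columns the order was reversed, 4.74% for clusters and 0.871% for microRNA genes. The ACR IP depth of 402000 reads by the derived step is what limits single features.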

Other observations

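The ACR IP table also listed 783 features with no row in the pellet table, 779 of them above 0 in the ACR IP and 231 at 0 in its lysate column. Of these, 703 were named genes of other kinds, with a median of 8.33 FPKM in the ACR IP and 0.292 FPKM in the lysate, 79 were assembled transcripts, with medians of 29.1 and 0 FPKM, and 1 was a microRNA gene, at 0. No piRNA cluster was among them. The highest was the assembled transcript Cuff.1333, at 10508 FPKM with a lysate of 0.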
